A study of Mus musculus with 8 samples.

Results

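The miRNAs of the imprinted Dlk1-Dio3 locus were followed across 8 small RNA libraries of mouse sperm, 4 labelled ethanol and 4 labelled control. Members were chosen by name, from a locus picked with earlier results of these data known: every mature miRNA row whose stem belonged to a list of 45 stems of the locus, either arm. The rule found 41 members from 29 stems among 956 miRNA rows and 45090 features of all kinds, and 16 stems gave no member. The series title places the sampling a month after alcohol exposure had ended. The labels give the treatment as ethanol or control, and no strain, age, dose or number of animals per sample. Nothing in them says that the samples came from separate animals, so each p-value is set against library-to-library spread that may be technical.

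Genes of the Dlk1-Dio3 locus are expressed from 1 parental chromosome. The protein-coding genes Dlk1, Rtl1 and Dio3 are read from the paternal copy, whereas the noncoding RNAs Meg3, Rian and Mirg, the Rtl1 antisense transcript and the miRNAs within them are read from the maternal copy. A control region between Dlk1 and Meg3 carries DNA methylation in sperm, which keeps the maternal-type transcripts silent on the paternal copy. The miRNAs are known for expression in embryo, placenta, brain and mesenchymal tissues.

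The 6 members with the most counts, and mmu-miR-411-5p for comparison with mmu-miR-379-5p, are shown so that the sequences behind the results can be seen, with the seed, bases 2 to 8 from the 5′ end, in capitals. RefSeq (build GRCm38.p6) held a mature sequence for 39 of the 41 members, from 20 to 26 bases long.
mmu-miR-541-5p: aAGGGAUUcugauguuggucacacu
mmu-miR-369-3p: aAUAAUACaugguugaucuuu
mmu-miR-369-5p: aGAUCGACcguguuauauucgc
mmu-miR-379-5p: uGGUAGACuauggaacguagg
mmu-miR-411-5p: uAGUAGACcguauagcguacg
mmu-miR-434-3p: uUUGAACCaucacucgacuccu
mmu-miR-409-3p: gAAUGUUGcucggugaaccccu
These 7 have 7 different seeds, and none of them is a near copy of another. Among members a seed was shared by mmu-miR-376b-5p and mmu-miR-376c-5p, whose mature sequences differ at 1 base and whose totals of 3 and 1 counts are uncertain for that reason. The seed of mmu-miR-379-5p is also that of mmu-miR-1193-5p, a miRNA of the same locus outside the rule. Hairpins were looked up in the RefSeq table on chromosome 12 alone. Of the 45 stems 44 had a hairpin there, all on the plus strand. Those hairpins ran from chr12:109563692-109563785 for Mir770 to chr12:109743715-109743795 for Mir410, and mature mmu-miR-541-5p lay at chr12:109742422-109742446. These positions are RefSeq's, since the deposited table names no build.

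The cluster was at the edge of detection in sperm of both groups. All members together had 591 of 5500038 miRNA counts, and mmu-miR-541-5p, the member with the most counts, ranked 222nd of 956 miRNA rows by mean CPM. CPM is a count scaled to a common library size, here after TMM factors, which allow for differences in library composition. Members were counted 87, 21, 72 and 26 times in ethanol replicates 1 to 4 and 102, 173, 52 and 58 times in control replicates 1 to 4. In all, 4 members had a count in all 8 libraries, while 13 were counted in a single library and 19 had a total of 1 or 2. For scale, 31 rows of the X-linked testis miRNA cluster, which is active in male germ cells, held 30518 counts in ethanol and 73858 in control libraries, and 63 rows of the Sfmbt2 cluster, also imprinted, held 87536 and 193210. A count of 3, the limit that 0 counts allow, equals 0.441 to 0.631 CPM in ethanol and 0.749 to 0.834 CPM in control libraries, so a member listed at 0 may still be present below those levels. All intervals and limits of this kind cover counting error only.

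Counts were unevenly spread along the locus. The 30 members of the Mirg group, the long run of hairpins from miR-379 to miR-410, held 80.6% of member counts in ethanol and 85.5% in control libraries. Members of the Rtl1 antisense group, 10 in number, held 18.4% and 14.5%. The Rian group was represented by mmu-miR-341-3p with 2 counts, both in ethanol replicate 1, and the Meg3 intron miRNA miR-770 by no row. Within the Mirg group both ends were counted most: miR-379, its first hairpin, had 15 counts in ethanol and 43 in control libraries, and near the far end miR-541 had 33 and 75 and miR-369 had 47 and 84. The 6 members with the most counts made up 65.7% of all member counts.

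**Figure D1:**
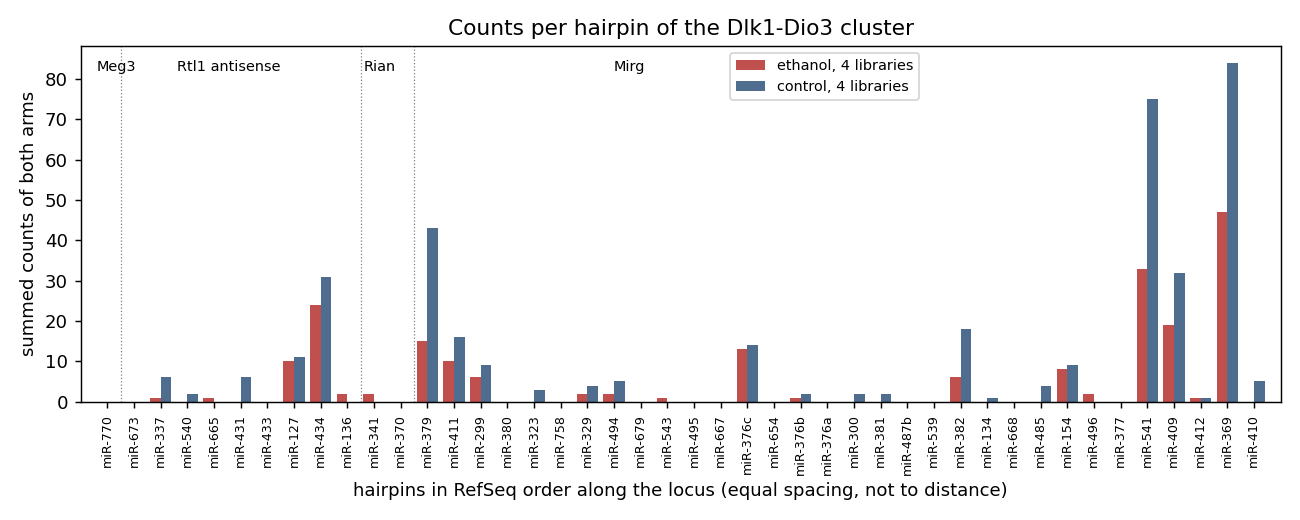
Counts per hairpin, both arms summed over the 4 ethanol (red, left bar) and 4 control libraries (blue, right bar), for the 44 hairpins in their RefSeq order along the locus; spacing is equal and dotted lines part the host groups. Counts gather at miR-434, at miR-379 and at the far end from miR-541 to miR-369, where miR-369 has 47 in ethanol and 84 in control libraries, and many hairpins have none.

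The comparison of ethanol with control sperm could be tested for a single member. mmu-miR-541-5p was counted 16, 2, 10 and 4 times in ethanol replicates 1 to 4 and 20, 31, 13 and 11 times in control replicates 1 to 4. These counts equal 2.35, 0.421, 1.89 and 0.692 CPM in ethanol libraries and 5.23, 8.02, 3.25 and 3.06 CPM in control libraries. Before scaling the groups overlapped, with 16 counts in ethanol replicate 1 against 13 and 11 in control replicates 3 and 4. In CPM every ethanol library lay below every control library, with ethanol replicate 2 lowest and control replicate 2 highest. It averaged 1.34 ± 0.928 CPM in ethanol and 4.89 ± 2.31 CPM in control sperm (SD, n = 4 each) and fell, with a log2 fold change of -1.81 ± 0.50 SE (edgeR quasi-likelihood, adjusted p = 0.0333 by Benjamini-Hochberg over all features tested). The other 40 members did not have enough counts for the test.

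That call has to be read against the other miRNAs of the same libraries. Of 13515 features tested, 1.75% fell and 11.9% rose, while of the 226 miRNAs among them 39.4% fell and 0.442% rose. The median log2 fold change was -0.01 over all features and -1.52 over miRNAs. The share of features with every ethanol library below every control library was 6.91% over all features and 41.6% over miRNAs. miRNAs as a class took 6.23% to 9.90% of deposited counts in ethanol libraries and 16.3% to 26.7% in control libraries. When miRNAs alone were fitted, which compares mmu-miR-541-5p with other miRNAs, its log2 fold change was -0.47 ± 0.45 and the call was lost (edgeR adjusted p = 0.760). In bulk RNA of this kind, fewer cells of a type and less RNA per cell cannot be told apart. Shares and CPM are relative to the other RNA counted, so less miRNA and more of other RNA cannot be told apart either. The call was also lost without control replicate 1, 2, 3 or 4 (edgeR adjusted p = 0.100, 0.0899, 0.0760 and 0.0615). Those 4 fits called 1 to 3 features up and 2 to 7 down in the whole table, against 1605 and 237 with all libraries, and the log2 fold changes of mmu-miR-541-5p in them were -1.89, -1.56, -2.06 and -2.08 (edgeR unadjusted p = 0.00408, 0.0114, 0.00183 and 0.00170). It was lost too without ethanol replicate 4 (edgeR adjusted p = 0.0784), with limma-voom, which called 8 features in all (limma-voom adjusted p = 0.0641), and when libraries were scaled by their totals (edgeR adjusted p = 0.0554). Over every alternative run its adjusted p ranged from 0.00205 to 0.765.

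The next 5 members by total count were too sparse for the test, and their values follow. mmu-miR-369-3p had 3.08, 0.210, 2.07 and 0.865 CPM in ethanol replicates 1 to 4, against 3.66, 9.31, 2.0 and 0 CPM in control replicates 1 to 4. The groups overlapped, and the 0 in control replicate 4 came from a library in which mmu-miR-369-5p, the other arm of the same hairpin, had 9 counts, its highest. An abrupt 0 was seen for abundant miRNAs too, as 23 rows whose median exceeded 100 counts had a library listed at 0. mmu-miR-369-5p had 0.587, 0.842, 0.189 and 0 CPM in ethanol libraries and 2.09, 1.03, 1.25 and 2.5 CPM in control libraries, with no overlap in CPM. Its counts were tied at 4 in ethanol replicates 1 and 2 and control replicate 2, so library scaling alone sets these apart. Unlike its partner arm, mmu-miR-369-5p was not highest in control replicate 2.

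mmu-miR-379-5p, from the first hairpin of the Mirg group, had 1.17, 0, 0.566 and 0.692 CPM in ethanol replicates 1 to 4 and 1.05, 6.72, 1.5 and 1.95 CPM in control replicates 1 to 4. The control level was set by control replicate 2, with 26 counts against 4 to 7 in the other control libraries, and ethanol replicate 1 lay above control replicate 1. mmu-miR-434-3p, an Rtl1 antisense miRNA that can pair perfectly with the Rtl1 mRNA, had 0.294, 0.421, 2.64 and 0.346 CPM in ethanol libraries and 3.14, 2.59, 0.999 and 1.11 CPM in control libraries. Here ethanol replicate 3 stood with the higher controls, and the other 3 ethanol libraries lay below all controls. mmu-miR-409-3p had 1.17, 0.210, 1.13 and 0.173 CPM in ethanol and 2.09, 2.59, 0.499 and 1.67 CPM in control libraries, and control replicate 3 lay below 2 ethanol libraries.

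**Figure D2:**
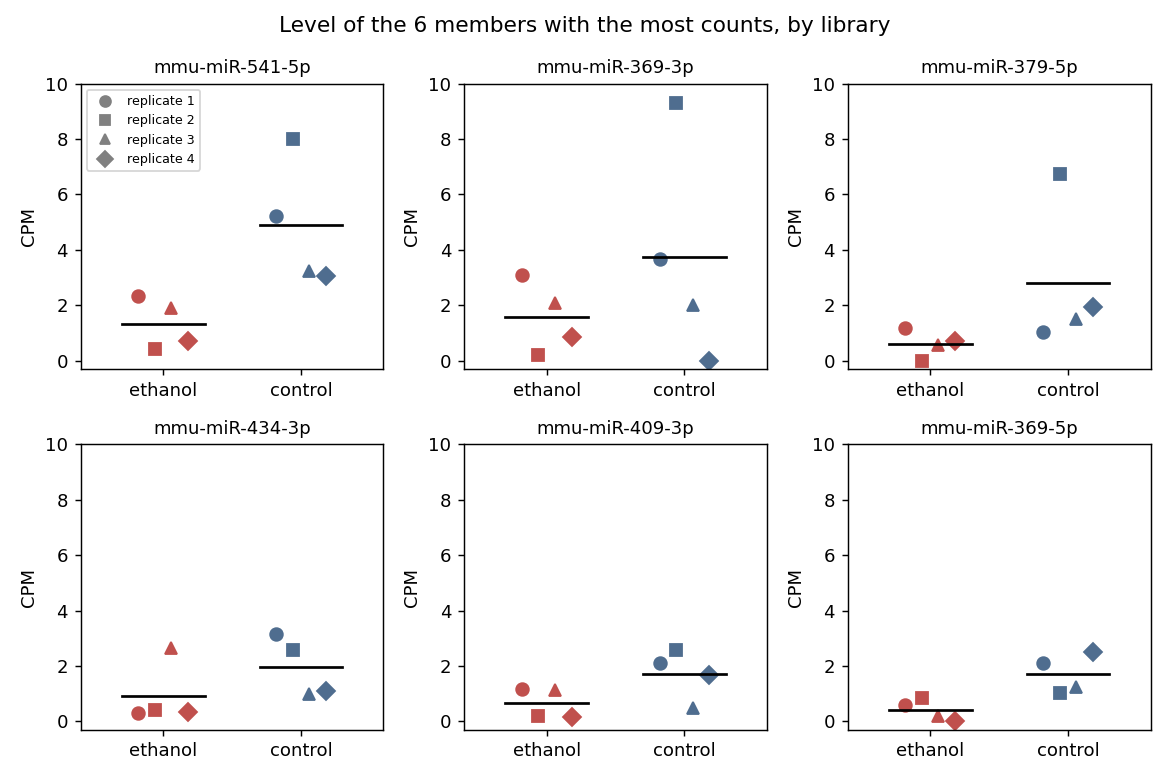
CPM of the 6 members with the most counts; each point is a library, its shape the replicate number, and each black line the mean of 4 libraries, with ethanol on the left and control on the right of each panel. Groups are apart in CPM for mmu-miR-541-5p and mmu-miR-369-5p and overlap for the other 4, and control replicate 2 is highest for mmu-miR-541-5p, mmu-miR-369-3p, mmu-miR-379-5p and mmu-miR-409-3p. For mmu-miR-369-5p ethanol replicates 1 and 2 and control replicate 2 have 4 counts each and differ by scaling alone.

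A further 6 members had 10 or more counts, and are named here after their values were seen. mmu-miR-376c-3p had 3, 0, 9 and 1 counts in ethanol and 3, 5, 2 and 3 in control libraries, 13 in each group. mmu-miR-411-5p had 10 counts in ethanol and 15 in control libraries, mmu-miR-382-5p 6 and 16, mmu-miR-154-5p 8 and 9, and mmu-miR-299a-5p 5 and 8. mmu-miR-127-3p, which like mmu-miR-434-3p lies antisense to Rtl1, had 9, 1, 0 and 0 counts in ethanol and 5, 0, 0 and 3 in control libraries, so 2 libraries of each group had none and the groups overlapped. The remaining 29 members had totals of 1 to 9. Of all 41 members 14 had no count in ethanol libraries, among them mmu-miR-431-5p with 6 control counts, 5 of them in control replicate 2, and 6 had none in control libraries, each with a total of 1 or 2.

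Mean CPM was lower in ethanol than in control sperm for 34 of the 41 members (82.9%), against 71.8% of the 952 miRNA rows with a count. Every ethanol library lay below every control library for 3 members, mmu-miR-541-5p, mmu-miR-369-5p and mmu-miR-337-5p, which is 7.32% of members against 13.3% of those miRNA rows. mmu-miR-337-5p was named after its values were seen and had 6 counts in all. It had 1 count each in ethanol replicate 2 and in control replicates 1, 2 and 4. Its groups, like those of mmu-miR-369-5p, were thus parted by the scaling of tied counts. Without the count filter all 41 members entered the fit and 2 passed, mmu-miR-541-5p (log2 fold change -1.77 ± 0.50, edgeR adjusted p = 0.00894) and mmu-miR-379-5p (-2.04 ± 0.60, edgeR adjusted p = 0.0130). In that fit 0.938% of all features and 16.0% of miRNA rows fell, and 0.945% of miRNA rows rose. Without control replicate 2 neither passed there: the log2 fold change was -1.15 for mmu-miR-379-5p (edgeR adjusted p = 0.465) and -1.42 for mmu-miR-541-5p.

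The 12 members with 10 or more counts were set beside all miRNA rows with 10 or more counts. Counts were not matched: these members had totals of 13 to 107, while mmu-miR-143-3p had 106296 counts in control replicate 2 alone. Against all features, without the count filter, all 12 had a negative log2 fold change and their median was -1.14, beside a median of -1.41 for the 438 miRNA rows with 10 or more counts. Against other miRNAs alone 4 were negative and 8 positive, with a median of 0.18 beside -0.09 for the same 438 rows. Over all 41 members the order was the other way, with a median of -1.61 beside -1.26 for all miRNA rows against all features, and -0.36 beside -0.02 against miRNAs alone. Of the 41, 29 had fewer than 10 counts, and for the 14 at 0 in ethanol and the 6 at 0 in control libraries the fitted value depends on the prior count. None of the 41 members passed among miRNAs alone (edgeR, 0 also at an unadjusted p under 0.05).

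**Figure D3:**
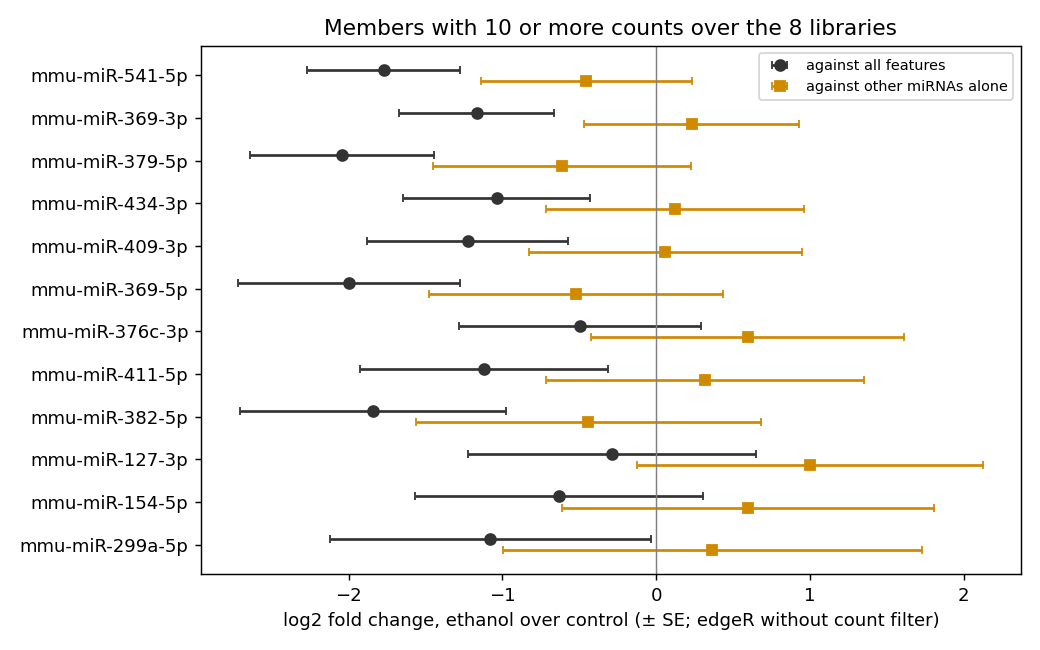
Log2 fold changes of ethanol over control with standard errors for the 12 members with 10 or more counts, fitted without a count filter against all features (black circles) and against other miRNAs alone (orange squares). All 12 circles lie below 0, whereas 8 of the 12 squares lie above it, and every square lies within its own standard error of 0.

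As a share of all miRNA counts, the cluster did not differ between groups beyond the spread of libraries. The share was 0.0135%, 0.00968%, 0.0104% and 0.00653% in ethanol replicates 1 to 4 and 0.0126%, 0.0148%, 0.00674% and 0.00724% in control replicates 1 to 4. The 95% Wilson interval was 0.0109% to 0.0167% for ethanol replicate 1 and 0.0128% to 0.0172% for control replicate 2, while it was 0.00446% to 0.00957% for ethanol replicate 4. Group means were 0.0100% ± 0.00286 in ethanol and 0.0103% ± 0.00399 in control sperm (SD, n = 4 each), a difference smaller than either SD. As a share of all deposited counts the members took 0.000836% ± 0.000383 in ethanol and 0.00214% ± 0.00132 in control sperm, and the ranges overlapped, with 0.00127% in ethanol replicate 1 above 0.00115% in control replicate 3. No test is given for these sums over chosen members.

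**Figure D4:**
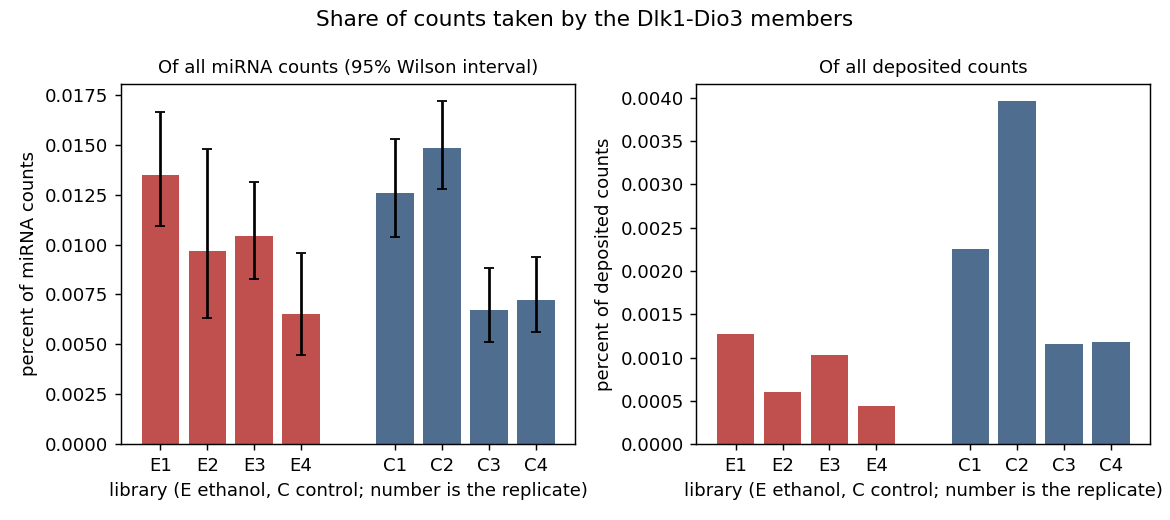
Percent of all miRNA counts, with 95% Wilson intervals as error bars (left), and percent of all deposited counts (right) taken by the 41 members in ethanol (red, E1 to E4) and control libraries (blue, C1 to C4). The left panel has the groups intermixed around 0.0100% and 0.0103%, and in the right panel control replicate 2 stands highest at 0.00396%.

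Arms of a hairpin could be compared by counts alone. Of 12 hairpins with both arms listed, none reached 20 counts over both arms in every library, the minimum set for a test; in the best case the poorest library had 5. miR-541 was read almost wholly from its 5p arm, with 32 of 33 counts in ethanol and 75 of 75 in control libraries. miR-369 favoured its 3p arm, with 38 of 47 counts in ethanol and 58 of 84 in control libraries, but its 5p arm led in ethanol replicate 2, with 4 counts against 1, and in control replicate 4, with 9 against 0. miR-434 was read mostly from its 3p arm, with 20 of 24 counts in ethanol and 30 of 31 in control libraries.

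Other readouts of the locus were as sparse. Hairpin rows, listed apart from the mature arms, numbered 15 and held 19 counts in ethanol and 32 in control libraries, and 8 miRNA rows under precursor names held 6 and 13. mmu-mir-377, whose mature arms gave no member, had the most hairpin counts, 13. None of these rows had enough counts for the test. Of the host and neighbouring genes, introns of Rian, the noncoding host of snoRNAs and miRNAs, had 0.734, 0, 1.70 and 0.692 CPM in ethanol replicates 1 to 4 and 3.40, 3.10, 2.25 and 1.95 CPM in control replicates 1 to 4. Every ethanol library lay below every control library there in CPM, as for 6.91% of all features tested, and with 18 and 41 counts Rian introns did not enter the test. Unscaled, their counts overlapped, with 9 in ethanol replicate 3 and 7 in control replicate 4. Rian exons had 10 counts in ethanol and 6 in control libraries, averaging 0.412 and 0.393 CPM, and their groups overlapped in CPM too. Exons of Meg3, the noncoding RNA at the head of the maternal transcripts, had 15 counts in ethanol and 14 in control libraries, and Mirg introns had 6 and 9. Rtl1 exons, which lie opposite the antisense miRNAs, had 9 counts in ethanol and 4 in control libraries, and the sources used here give no strand setting, so reads of the 2 strands cannot be told apart. Dlk1 exons had 2 counts in each group and those of Dio3, a thyroid hormone deiodinase gene, 4 and 6. Begain, a neighbour of Dlk1, was the locus gene with enough counts for the test, and neither its exons (log2 fold change -0.17 ± 0.39, edgeR adjusted p = 0.787) nor its introns (-0.52 ± 0.39, edgeR adjusted p = 0.355) passed.

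In a list of imprinted miRNAs from other loci, 2 rows, mmu-miR-296-5p and mmu-miR-335-5p, were better covered than any cluster member. The rest averaged 0.0327 to 0.988 CPM over the 8 libraries. Of 7 rows of miR-296, miR-298, miR-335 and miR-483, 2 were tested and 1 fell, where 39.4% of all tested miRNAs fell. mmu-miR-335-5p, hosted by the imprinted gene Mest, had 4.41, 2.31, 3.77 and 3.29 CPM in ethanol replicates 1 to 4 and 8.37, 10.1, 8.99 and 10.3 CPM in control replicates 1 to 4 (log2 fold change -1.44 ± 0.34, edgeR adjusted p = 0.0287). The groups did not overlap, as was so for 41.6% of tested miRNAs. For mmu-miR-296-5p from the Gnas locus the log2 value was -1.16 ± 0.46 (edgeR adjusted p = 0.0941). Of the miRNAs in or beside the Dlk1-Dio3 locus that the rule leaves out, mmu-miR-1247-5p and mmu-miR-3072-3p had rows, with 4 counts between them in ethanol and 4 in control libraries.

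Likeness over the 8 libraries, by Pearson correlation of log2 CPM with 0.5 CPM added, was measured against 225 tested miRNAs outside the cluster. Nearest to mmu-miR-541-5p were mmu-miR-532-5p (r = 0.984, Spearman's rho = 0.952), mmu-miR-669c-5p (r = 0.983, rho = 0.929) and mmu-miR-9-5p (r = 0.979, rho = 0.952). Nearest to mmu-miR-369-3p were mmu-miR-30c-2-3p (r = 0.949, rho = 0.905), mmu-miR-669f-3p (r = 0.911, rho = 0.857) and mmu-miR-466d-3p (r = 0.784, rho = 0.833). Both mmu-miR-369-3p and mmu-miR-669f-3p were listed at 0 in control replicate 4, where mmu-miR-466d-3p had 19.5 CPM. How far that shared 0 sets their r was not tested. All points share library depth and the miRNA share of each library, and the member counts are low. The part of these in the correlations was not tested, and the values are given as a description.

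Markers of sperm and of other cells were read in the same libraries, with calls from the edgeR fit over all features. The shares of calls to set beside them are 39.4% of tested miRNAs that fell, 1.75% of all features that fell and 11.9% that rose. Of the sperm transcripts, led by Smcp and Odf1, 10 of 10 had counts and their sum was 205 to 545 CPM in ethanol and 522 to 663 CPM in control libraries. None of the 9 tested passed (edgeR, with 2 at an unadjusted p under 0.05, and 2 called by DESeq2). Male germ cell miRNAs, led by mmu-miR-743a-3p among those called, summed to 1626 to 7922 CPM in ethanol and 7199 to 11447 CPM in control libraries, and 7 of 12 tested fell. Their sum was lowest in ethanol replicate 2 and highest in control replicate 2. Among these germ cell miRNAs mmu-miR-449a-5p was listed at 0 in ethanol replicate 4 and control replicate 2. miRNAs of stroma and vessels summed to 1271 to 5687 CPM in ethanol and 3108 to 45757 CPM in control libraries, and 3 of 7 tested fell, mmu-miR-145a-5p, mmu-miR-199a-3p and mmu-miR-199a-5p. Control replicate 2 was highest for this list, at 45757 CPM against 3108 to 10602 CPM in the other controls. It also had the highest sum over the cluster, 44.7 CPM, against 12.98 to 26.7 CPM in the other controls and 4.42 to 13.6 CPM in ethanol libraries. Of all libraries control replicate 2 had the highest miRNA share of deposited counts, 26.7%, and ethanol replicate 2 the lowest, 6.23%. Muscle miRNAs ranged from 103 to 391 CPM in ethanol and 339 to 3677 CPM in control libraries, again highest in control replicate 2, and mmu-miR-1a-3p and mmu-miR-133a-3p, 2 of 2 tested, fell. The part of these cells in the member counts was not tested.

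**Figure D5:**
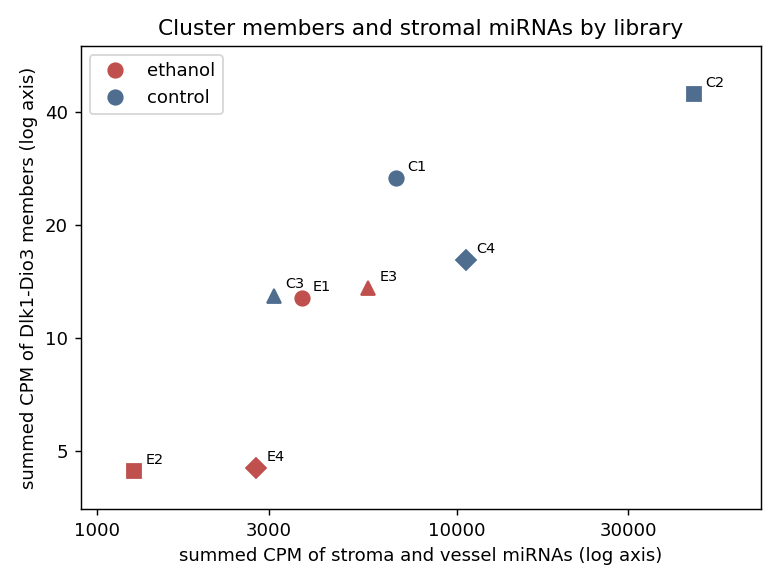
Summed CPM of the 41 members against summed CPM of 9 rows of stroma and vessel miRNAs, both on log axes, with 1 point per library (E ethanol, C control, number the replicate). Control replicate 2 is highest on both axes, at 45757 and 44.7 CPM, and ethanol replicate 2 lowest on both, at 1271 and 4.42 CPM. Male germ cell miRNAs, not plotted, have the same extremes, at 11447 CPM in control replicate 2 and 1626 CPM in ethanol replicate 2.

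Transcripts of stroma, vessels and muscle had fewer counts than the miRNAs of those lists. Collagen, Dcn and Pecam1 exons summed to 13.4 to 42.9 CPM in ethanol and 35.9 to 53.2 CPM in control libraries, with 0 of 4 tested passing (1 at an unadjusted p under 0.05, and 1 called by DESeq2). Muscle transcripts summed to 13.7 to 32.7 CPM in ethanol and 15.2 to 79.6 CPM in control libraries, highest in control replicate 2, with 0 of 3 passing (1 at an unadjusted p under 0.05, and 0 called by DESeq2). That sum is led by Myh11 (log2 fold change -0.98 ± 0.51), while Acta1 had the opposite sign (1.45 ± 0.58, edgeR adjusted p = 0.0986); both were singled out after their values were seen. Neuron transcripts were near 0, at 0.189 to 0.692 CPM in ethanol and 0 to 1.11 CPM in control libraries, with 1 count of Snap25 over all 8 libraries. The miRNAs of the neuron list summed to 166 to 687 CPM in ethanol and 825 to 1271 CPM in control libraries, with 0 of 3 passing (3 at an unadjusted p under 0.05, and 2 called by DESeq2). In epididymal epithelium Crisp1 and Epcam, 2 of 2 tested, rose, with 1 of the 2 called by DESeq2, and the list summed to 793 to 9744 CPM in ethanol and 354 to 648 CPM in control libraries, highest in ethanol replicate 2, which had the lowest sum over the cluster. The epithelial miR-200 family summed to 1062 to 3708 CPM in ethanol and 1320 to 4722 CPM in control libraries, with 0 of 4 passing (0 at an unadjusted p under 0.05, and 0 called by DESeq2). Its mmu-miR-141-3p was listed at 0 in ethanol replicates 3 and 4 and control replicates 1 and 4, against 1029 to 2045 counts elsewhere. Red cell miRNAs summed to 30.7 to 116 CPM in ethanol and 85.1 to 1198 CPM in control libraries, and mmu-miR-144-5p, mmu-miR-451a and mmu-miR-486a-5p, 3 of 3 tested, fell. Red cell transcripts summed to 1.32 to 10.55 CPM in ethanol and 9.68 to 19.9 CPM in control libraries, and 1 of 2 tested fell, Hba-a1. White cell miRNAs summed to 17.0 to 179 CPM in ethanol and 233 to 414 CPM in control libraries, and 3 of 4 tested fell, mmu-miR-150-5p, mmu-miR-155-5p and mmu-miR-223-3p. White cell transcripts summed to 5.09 to 14.5 CPM in ethanol and 8.90 to 15.8 CPM in control libraries, with 0 of 1 passing (0 at an unadjusted p under 0.05, and 0 called by DESeq2). limma-voom called no member of any of these lists, and the part of these cells in the results above was not tested.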

How the data were processed

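Small RNA of 8 mouse sperm samples, 4 ethanol and 4 control, was extracted with Trizol and prepared with Qiaseq reagents, per the labels' protocols. The authors deposited a single table of raw counts, features by libraries. Aligner, counting rule, build, strand and use of molecular identifiers are not given in the sources used here. Deposited totals ran from 3481865 to 6975180 counts. Rows of 1 name and type were summed and each piRNA cluster was represented by its transcript with the most counts, which left 45090 features. The test was edgeR's (version 4.0.16, run in R 4.3.3, with TMM factors, filterByExpr at minimum count 10, robust quasi-likelihood fit, group as the sole term, Benjamini-Hochberg adjustment, threshold 0.05). SE is the absolute log2 fold change over the square root of F. The fit was tested on simulated data. Members, lists and tests were chosen with earlier results of these data known. Named members were those past the threshold, the tested ones, and the 5 untested ones with the highest totals; in other lists, members past the threshold or the 2 most abundant. No 2 libraries of a group agreed within sampling noise (chi-square per degree of freedom 11.7 to 189). Alternatives were DESeq2 1.42.0, limma-voom (limma 3.58.1), other scalings and filters, a replicate block, miRNAs alone and libraries left out. Shares, intervals and plots used Python 3.11.15, scipy 1.17.1 and matplotlib 3.10.9.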

Additional observations from a re-analysis of the deposited data

Results flagged for a closer look

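Of 18 groups of 4 libraries looked at, 2 held a library far from the other 3 by Dixon's ratio of gap to range, where chance gives about 1 in 20. mmu-miR-379-5p reached 6.72 CPM in control replicate 2, with 1.05 to 1.95 CPM in the other control libraries. mmu-miR-434-3p reached 2.64 CPM in ethanol replicate 3, with 0.294 to 0.421 CPM in the other ethanol libraries.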

How the results depend on the processing

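The number of members changed, 1 at first, was 0 when libraries were scaled by totals, with limma-voom, with miRNAs alone (also without the count filter) and without control replicate 2 and ethanol replicate 2 together. It ranged from 0 to 1 with 1 library left out, was 2 without the count filter, and ranged from 0 to 3 when that filter and 1 library were dropped together. Without 1 control library, where no member was called, the filtered fits called 1 to 3 features up and 2 to 7 down in all, so calls were lost across the whole table. Without 1 ethanol library they called 972 to 2732 up and 85 to 837 down. The log2 fold change of mmu-miR-541-5p kept its sign in every alternative run. Its call was lost at -1.60 with library totals, -1.89 with limma-voom, -0.47 with miRNAs alone (-0.45 without the filter) and -1.24 without both of those libraries (-1.24 without the filter). With 1 library left out it ranged from -2.24 to -1.56, and without the filter its call was lost at -1.42 without control replicate 2 and -1.59 without ethanol replicate 4. The median over tested members was -0.12 with miRNAs alone, -0.36 with miRNAs alone and no filter, and between -2.24 and -0.96 with 1 library left out. mmu-miR-369-3p turned to 0.22 with miRNAs alone, 0.23 without the filter there, and 0.047 without both libraries and the filter. mmu-miR-434-3p turned to 0.12 and mmu-miR-409-3p to 0.059 with miRNAs alone and no filter. The log2 ratio of the cluster's share was -0.04 of miRNA counts, -0.22 to 0.18 with 1 library left out, and -1.35 of all deposited counts. The cause of these changes was not tested. The replicate block left mmu-miR-541-5p called (-1.83), and called 2498 features up and 796 down against 1605 and 237 without it. Deviations of same-numbered libraries had correlations of 0.344, 0.210, -0.129 and -0.0206 for replicates 1 to 4. Between libraries of different number they ran from -0.404 to 0.385. Whether same-numbered libraries share more than a number was not tested. Features called numbered 2318 up and 826 down with DESeq2's Wald test, 1001 up with its size factors, 1461 and 95 with library totals, and 1 and 7 with limma-voom. Fits without the filter but with a library dropped, miRNAs alone without the filter, and those without both libraries were added after seeing the data. A minimum count of 30 left no member to test, and the arm comparison was not run because no hairpin reached 20 counts in every library. With 1 to 107 counts per member, 40 of the 41 could not be tested under the count filter at this depth.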
